A study of Homo sapiens with 9 samples.

Results

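The genes examined here encode 9 transcription factors that define the hepatocyte: HNF4A, FOXA1, FOXA2, FOXA3, CEBPA, CEBPB, ONECUT1, PROX1 and NR1H4. They were taken as a named set, and every ATAC-seq peak that overlapped a gene body or the 50 kb on either side of it was assigned to that gene. The set covered 9 of 20136 protein-coding genes. Its windows held 71 of the 69730 peaks of the control list, 62 of 69333 with the first INO80 siRNA and 53 of 53113 with the other. After the lists were merged these made up 94 of 111260 accessible regions.

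ATAC-seq inserts sequencing adapters into open DNA with a transposase, so that a peak marks a stretch of accessible chromatin. All samples were HepG2 cells, an established human liver cancer line, transfected with 50 nM siRNA and collected at 72 h. The groups were a non-targeting siRNA (NTG) and a pair of siRNAs against INO80 (siINO80#1 and siINO80#2), the ATPase of a nucleosome remodeling complex. Each group had 3 replicates, for 9 samples, but was represented by 1 peak list. No difference between lists could therefore be set against the spread between replicates, and no test was made. The files hold no RNA or protein value, so depletion of INO80 was not measured in them. A gene without a peak in a list is one at which nothing passed the peak caller's threshold, which does not show that its chromatin was closed.

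HNF4A is a nuclear receptor that binds the promoters of a large part of the genes expressed in hepatocytes. FOXA proteins are pioneer factors able to bind their sites on nucleosomal DNA, and C/EBP, ONECUT and PROX1 proteins act with them in liver development and metabolism. NR1H4 (FXR) is the receptor for bile acids. These factors bind at regulatory elements of one another's genes, so that their loci form a mutually connected network.

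The DNA at the summits of 7 regions is shown because they were the strongest distal region of a gene with a searched motif in it, the strongest region found in NTG alone, and the strongest found with both INO80 siRNAs but absent from NTG. Each is 150 bp of the plus strand of GRCh37 (hg19) centred on the summit of highest fold enrichment, with motif matches in capitals. On one strand or the other, FOXA matches read TGTTTAC, C/EBP matches TTGCNNAA, AP-1 matches TGAGTCA and the NR1H4 match GGTCANTGA.
HNF4A intron, chr20:42999340-42999489: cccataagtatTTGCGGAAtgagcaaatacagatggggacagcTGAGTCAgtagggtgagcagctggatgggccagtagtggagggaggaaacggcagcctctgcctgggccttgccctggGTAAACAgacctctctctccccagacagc
FOXA1 distal, chr14:38016155-38016304: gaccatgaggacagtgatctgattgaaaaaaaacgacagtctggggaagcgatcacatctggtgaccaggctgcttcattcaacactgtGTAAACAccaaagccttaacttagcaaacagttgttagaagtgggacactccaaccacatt
FOXA3 distal, chr19:46398870-46399019: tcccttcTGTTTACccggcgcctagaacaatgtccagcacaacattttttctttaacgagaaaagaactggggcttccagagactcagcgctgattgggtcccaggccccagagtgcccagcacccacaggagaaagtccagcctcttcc
PROX1 downstream, chr1:214224073-214224222: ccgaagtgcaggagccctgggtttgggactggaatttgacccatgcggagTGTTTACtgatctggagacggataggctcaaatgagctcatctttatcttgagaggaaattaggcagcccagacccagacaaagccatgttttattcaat
NR1H4 upstream, chr12:100820959-100821108: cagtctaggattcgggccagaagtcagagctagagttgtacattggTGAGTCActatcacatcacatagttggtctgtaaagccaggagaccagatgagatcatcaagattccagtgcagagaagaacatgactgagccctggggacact
PROX1 in NTG alone, chr1:214129556-214129705: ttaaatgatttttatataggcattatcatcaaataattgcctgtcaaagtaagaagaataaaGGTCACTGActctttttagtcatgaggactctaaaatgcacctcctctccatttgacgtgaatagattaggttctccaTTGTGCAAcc
FOXA1 in both siINO80 lists, chr14:38052051-38052200: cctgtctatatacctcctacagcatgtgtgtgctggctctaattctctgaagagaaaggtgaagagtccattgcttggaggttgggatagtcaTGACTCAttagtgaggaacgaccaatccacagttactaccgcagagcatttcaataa

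The hepatocyte label was first set against the start sites of marker genes. A peak lay within 1 kb of a start site of 7, 7 and 6 of 8 hepatocyte genes in NTG, siINO80#1 and siINO80#2. FGB had none in any list and ALB none in siINO80#2. Of genes marking other cells, 0 of 2 endothelial genes had such a peak in any list, whereas 2, 2 and 1 of 4 blood genes, 2 of 3 fibroblast genes in each list, and 1, 1 and 0 of 3 neuronal genes did. The lists differ in depth. The lowest local background, in reads, was 3.82 in NTG, 5.16 in siINO80#1 and 5.34 in siINO80#2, and the median peak had 20, 24 and 25 reads at its summit. Peak strength is given here as fold enrichment over the local background of the same list and as a percentile within that list, where 100 is the strongest peak.

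The number of accessible regions differed widely among the 9 genes. In NTG the windows held between 4 and 12 peaks with a median of 8, against a median of 4 over all protein-coding genes. The medians were 6 in siINO80#1 and 6 in siINO80#2, against 4 and 3. In NTG, HNF4A, FOXA1, PROX1 and NR1H4 had the most and CEBPA and FOXA3 the fewest. The windows spanned from 102 kb at CEBPB to 191 kb at NR1H4. Per 100 kb, NTG had 10.3 peaks at FOXA1, 7.66 at FOXA2, 6.29 at NR1H4, 6.21 at HNF4A and 5.89 at CEBPB. PROX1 had 5.68, ONECUT1 4.41, CEBPA 3.90 and FOXA3 3.64. Chromosomes 14 and 20, which carry FOXA1, HNF4A, FOXA2 and CEBPB, held 31.1 and 34.6 NTG peaks per Mb. Chromosomes 1, 12, 15 and 19, which carry the other genes, held 20.5, 19.6, 14.6 and 16.9. With every list limited to 53113 peaks the order of the lists depended on the ranking. The peaks of highest fold enrichment left 50, 44 and 53 around the 9 genes, whereas those with most reads at the summit left 68, 60 and 53. Under the ranking by fold enrichment, siINO80#2 exceeded NTG at HNF4A (8, 7 and 10), FOXA1 (6, 8 and 13), FOXA2 (4, 3 and 7) and CEBPB (3, 3 and 4). It fell below NTG at FOXA3, CEBPA, ONECUT1, PROX1 and NR1H4. The 12 other liver factor genes held 58, 53 and 40 peaks, from 11 at NR5A2 to 0 at CREB3L3 in NTG. The 9 genes of factors from other lineages held 28, 26 and 24, with 9 in NTG at NEUROD1 and 0 at TBX5.

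**Figure D1:**
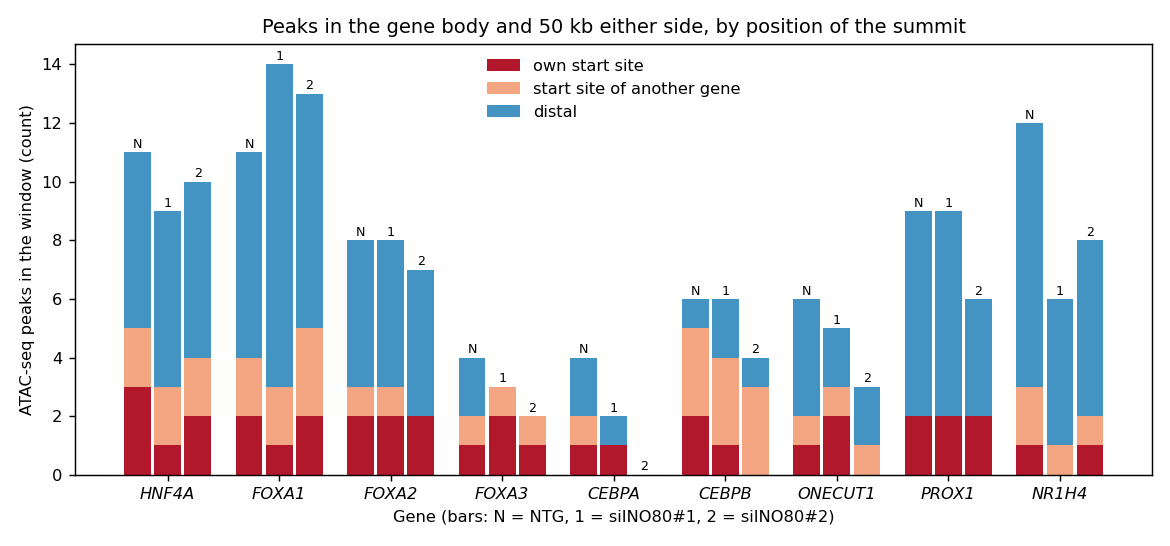
Number of ATAC-seq peaks (y axis) in the window of each gene (x axis) in NTG (N), siINO80#1 (1) and siINO80#2 (2), split by whether the summit lay within 1 kb of a start site of the gene itself, within 1 kb of a start site of another gene only, or was distal. CEBPA had 4, 2 and 0 peaks and FOXA1 had 11, 14 and 13.

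At their own start sites, 9 of the 9 genes had a peak in NTG, 8 in siINO80#1 and 6 in siINO80#2. The corresponding shares of all protein-coding genes were 60.5%, 60.1% and 53.4%. NR1H4 lacked such a peak in siINO80#1, and CEBPA, CEBPB and ONECUT1 lacked one in siINO80#2. The order here also depended on how the lists were made equal in length. When each list was limited to its 53113 peaks of highest fold enrichment, 6 genes had a start-site peak in each list. NTG then lacked such a peak at CEBPA, CEBPB and ONECUT1, the same genes as siINO80#2. The siINO80#1 list lacked it at FOXA2, CEBPB and NR1H4. When the same number of peaks was taken by reads at the summit, 9, 8 and 6 genes had one. A −log10 q of 5 or more left 6, 7 and 3 genes, with siINO80#1 above NTG. The other liver factor genes with an own start-site peak numbered 8, 8 and 7 of 12, and those of other lineages 2 of 9 in each list, PAX6 and PDX1.

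By median, the start-site peaks of the 9 genes ranked high by reads yet low by fold enrichment. Their median percentile by reads was 84.4 in NTG, 77.8 in siINO80#1 and 75.3 in siINO80#2, and by fold enrichment it was 22.0, 42.0 and 15.2. Not every gene followed this. In NTG the strongest start-site peaks of FOXA1, FOXA3 and PROX1 ranked at 77.8, 76.7 and 80.5 by fold enrichment, and that of NR1H4 at 25.3 by reads. For start-site peaks of all genes the medians were 74.1, 73.6 and 71.3 by reads and 67.9, 67.0 and 64.9 by fold enrichment. The local background at the members' start sites was 3.40, 2.40 and 2.65 times the lowest of its list, against 1.65, 1.63 and 1.55 at the start sites of all genes. Chromosome 20, which carries HNF4A, FOXA2 and CEBPB, had a median background ratio over all its peaks of 1.95, 1.91 and 1.93, and chromosome 14, which carries FOXA1, of 1.74, 1.63 and 1.73. Chromosome 12, which carries NR1H4, had 1.13 in NTG. The effect of the local background on which of these peaks were called was not tested.

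**Figure D2:**
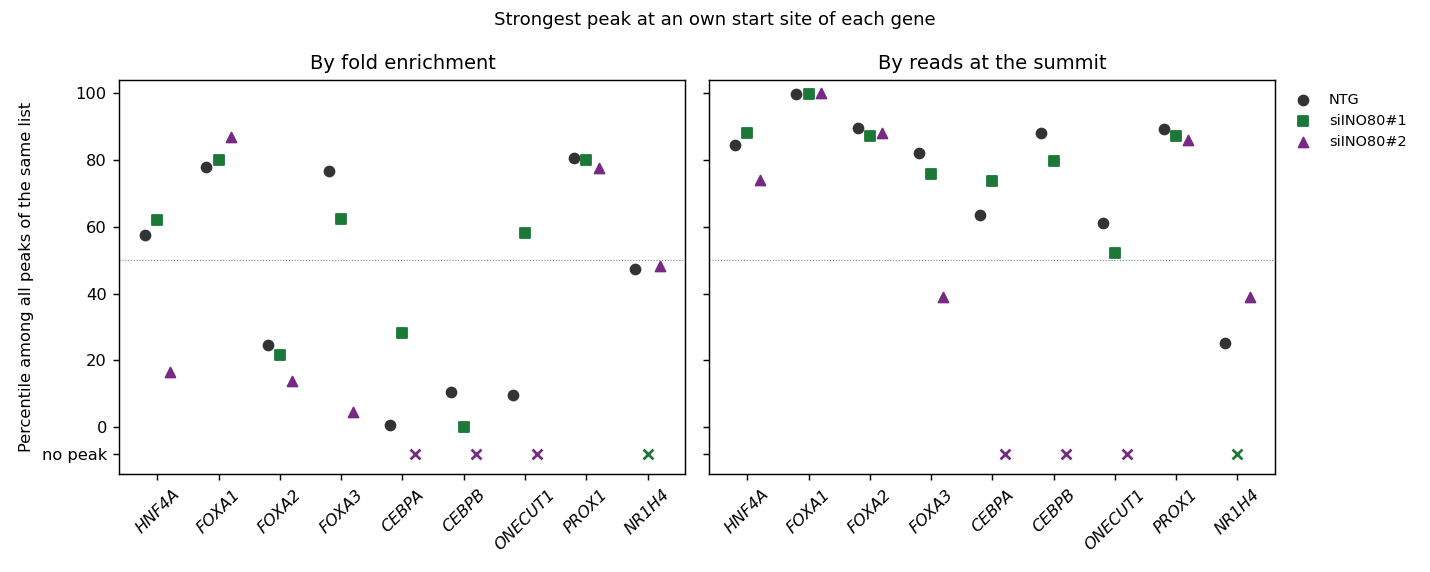
Percentile within its own list (y axis) of the strongest own start-site peak of each gene (x axis), ranked by fold enrichment (left) and by reads at the summit (right); a cross marks a gene with no such peak. FOXA2 and CEBPB lie at 24.8 and 10.6 in NTG by fold enrichment but at 89.6 and 88.2 by reads, and the 4 crosses are CEBPA, CEBPB and ONECUT1 in siINO80#2 and NR1H4 in siINO80#1.

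HNF4A lies on chromosome 20 at 42984339 to 43061485, on the plus strand. Its window held 11 peaks in NTG, 9 in siINO80#1 and 10 in siINO80#2. The gene has an upstream promoter and an internal promoter, of which the internal one drives the isoforms typical of adult liver. At the upstream start (42984339) a peak was present in all 3 lists, with a fold enrichment of 3.71 on 41 reads in NTG, 3.67 on 57 reads in siINO80#1 and 2.52 on 37 reads in siINO80#2. It ranked at percentiles 57.4, 61.9 and 16.5. At the internal starts, NTG had a peak at 43029783 to 43029937, in an exon, and another at 43030287 to 43030537, in an intron, and neither siINO80 list had one. They had 30 and 26 reads, at read percentiles of 72.7 and 65.7, but fold enrichments of only 2.22 and 1.92, at percentiles of 1.47 and 0.0839. The local background there was 3.40 and 3.42 times the lowest of the list, so that these peaks were among the weakest by fold enrichment and not by reads.

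The distal peaks of HNF4A numbered 6 in each list, and 5 distal regions had a peak in all 3. The strongest lay in an intron at 42999049 to 42999735, 14970 bp downstream of an HNF4A start. Its fold enrichment was 6.37 in NTG, 7.88 in siINO80#1 and 4.49 in siINO80#2, at percentiles 86.7, 93.8 and 75.5. This is the sequence above with FOXA, C/EBP and AP-1 matches within 150 bp. An intronic region at 43039696 to 43040277 ranked at 75.1 in NTG, 54.9 in siINO80#1 and 1.23 in siINO80#2. Its neighbour at 43022814 to 43023870 showed the same order, at 75.7, 54.2 and 11.9. These ranks are by fold enrichment. The region at 43039696 had 78, 62 and 40 reads, at read percentiles of 96.4, 90.1 and 77.7. The neighbour had 76, 58 and 41 reads, at 96.1, 88.6 and 78.8.

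The FOXA genes differed from one another. FOXA1, on chromosome 14 at 38058757 to 38065264 on the minus strand, had more peaks with either INO80 siRNA (14 and 13) than in NTG (11). This did not hold for siINO80#1 with a −log10 q of 5 or more (7, 6 and 8 peaks) or a window of 10 kb (5, 5 and 6). With lists of equal length it held, both by fold enrichment (6, 8 and 13) and by reads at the summit (11, 14 and 13). The FOXA1 promoter carried 161 reads in NTG, 237 in siINO80#1 and 247 in siINO80#2, at read percentiles of 99.7, 99.9 and 99.9. Its fold enrichments were 5.16, 5.10 and 5.74. The strongest distal region of the whole set lay in the FOXA1 window, in an exon of the neighbouring gene MIPOL1 at 38015666 to 38016675. Its fold enrichment was 13.5, 14.9 and 11.3 on 182, 251 and 175 reads, at percentiles 99.6, 99.9 and 99.3, so that it stood near the top of every list. Its summit sequence contained 1 FOXA match.

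Of the 3 regions called with both siINO80 siRNAs but absent from NTG, 2 lay in the FOXA1 window. The stronger, at 38051953 to 38052395, was intergenic and 11341 bp downstream of a FOXA1 start. It had 58 reads in siINO80#1 and 60 in siINO80#2, where its fold enrichment was 3.02 and 3.09 and its percentile 45.3 and 46.9. Its summit held an AP-1 match, as did 32.0% of all 5778 regions called with both siINO80 siRNAs but absent from NTG. The other, in an intron of TTC6 at 38092911 to 38093182, ranked at 3.08 and 38.6. The remaining region of this kind lay in the FOXA2 window, in an intron of the long non-coding RNA gene LNCNEF at 22582091 to 22582503, and ranked at 44.3 and 46.0.

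FOXA2, on chromosome 20 at 22561636 to 22566093 on the minus strand, had 8 peaks in NTG, 8 in siINO80#1 and 7 in siINO80#2. Its strongest start-site peak had 50, 55 and 54 reads with fold enrichments of 2.81, 2.55 and 2.46. The peak over its 5′ end, at 22565400 to 22566217, was present in NTG at percentile 7.74 and in siINO80#1 at 7.72 and absent from siINO80#2. A pair of upstream intergenic regions had a peak in every list. That at 22597527 to 22598122 ranked at 66.7, 80.3 and 81.1, and that at 22599930 to 22600583 at 64.6, 66.5 and 69.7.

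FOXA3, on chromosome 19 at 46367247 to 46377055 on the plus strand, had 4, 3 and 2 peaks. The peak counted at its start site in all 3 lists had its summit nearer to a start of SYMPK (39 to 80 bp), the neighbouring gene, than to that of FOXA3, so that the 2 promoters cannot be told apart. It ranked at 76.7, 62.4 and 4.58, on 38, 39 and 22 reads. A separate peak over the FOXA3 start itself, at 46367044 to 46367429, was found in siINO80#1 alone, at percentile 5.63. Both distal peaks were in NTG alone. The stronger, in an intron of MYPOP at 46398863 to 46399054, ranked at 34.8 on 16 reads and is shown above with its FOXA match.

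The C/EBP genes had peaks of low fold enrichment, or none, at their own promoters. CEBPA, on chromosome 19 at 33790840 to 33793440 on the minus strand, encodes the bZIP factor that restrains proliferation of differentiated hepatocytes. Its window held 4 peaks in NTG, 2 in siINO80#1 and 0 in siINO80#2. NTG fell below siINO80#1 with a −log10 q of 5 or more (0, 2 and 0) and with equal lists by fold enrichment (1, 2 and 0). The start-site peak had 25 reads in NTG and 37 in siINO80#1, where it was enriched 2.13 and 2.64 times over background and ranked at 0.765 and 28.3. By reads it ranked at 63.5 and 73.6. It also lay next to the start of the divergent transcript CEBPA-DT. A downstream intergenic region at 33783899 to 33784644 ranked at 5.30 in NTG and 61.2 in siINO80#1. The strongest NTG peak of the window, at 33839512 to 33839814, was found in NTG alone and ranked at 58.5 on 17 reads.

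CEBPB, the related factor induced in the acute-phase response, lies on chromosome 20 at 48807367 to 48809205 on the plus strand. Its window held 6, 6 and 4 peaks. NTG had a peak at 48807371 to 48807555, over the start, with 44 reads, and another at 48806325 to 48806618 with 47 reads, at percentiles of 2.23 and 10.6. By reads they ranked at 86.4 and 88.2, and the local background was 4.91 and 4.64 times the lowest of the list. In siINO80#1 the peak over the start had 43 reads (read percentile 79.7), a fold enrichment of 1.68 and a percentile of 0.0151. The siINO80#2 list had none. The strongest regions of the window belonged to start sites of other genes. The peak at the start of the non-coding gene LINC01273, at 48788276 to 48789496, ranked at 70.7, 71.3 and 71.5, and that at LINC01275 at 82.6, 78.5 and 62.8. No distal region of CEBPB had a peak in all 3 lists, and its strongest distal region by mean percentile, at 48776931 to 48777097, was in siINO80#2 alone at 6.33.

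ONECUT1 (HNF6), a cut-homeodomain factor of hepatocyte and biliary development, lies on chromosome 15 at 53047250 to 53083275 on the minus strand and had 6, 5 and 3 peaks, or 2, 3 and 2 with a −log10 q of 5 or more. The peak near its 5′ end, at 53082370 to 53082893, ranked at 9.57 in NTG and 5.06 in siINO80#1 and was not called in siINO80#2. A peak 489 bp from the internal start at 53073380, spanning 53072341 to 53073170, was found in siINO80#1 alone, at percentile 58.3 on 25 reads. The intronic region at 53057936 to 53058275 was shared by all lists, at 57.0, 57.5 and 82.4. Of the 3 lists, siINO80#2 thus had the highest rank at the intron and no peak at the promoter.

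PROX1, a homeobox factor of early hepatoblasts, lies on chromosome 1 at 214156524 to 214214853 on the plus strand. It had 9 peaks in NTG, 9 in siINO80#1 and 6 in siINO80#2, and a peak at each of 2 start sites in every list. The stronger, at 214160842 to 214162029, had fold enrichments of 5.43, 5.09 and 4.66 on 49, 55 and 50 reads and ranked at 80.5, 79.9 and 77.5. The other, at the 5′ end, ranked at 56.9, 55.7 and 22.8. Downstream of the gene, a region at 214223112 to 214224858 ranked at 94.6, 96.6 and 90.9, with fold enrichments of 8.42, 9.22 and 6.48. It is shown above with 1 FOXA match. An intronic region of the antisense gene PROX1-AS1, at 214129473 to 214129844, ranked at 76.2 on 23 reads and was the strongest region of the whole set in NTG alone. Its sequence carried a C/EBP and an NR1H4 match. In siINO80#1 a separate peak lay close by, at 214129973 to 214130132, at percentile 33.8.

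NR1H4, on chromosome 12 at 100867486 to 100958192 on the plus strand, had 12 peaks in NTG, 6 in siINO80#1 and 8 in siINO80#2. Its start-site peaks were not at the same start in different lists. In NTG the peak covered the internal start at 100897138, with 15 reads and percentile 47.4. In siINO80#2 it lay at the upstream start at 100867486, with 22 reads and percentile 48.2. The siINO80#1 list had neither. With a distance of 2.5 kb in place of 1 kb, siINO80#1 also had a start-site peak and 9 of the 9 genes had one. The region concerned, at 100869405 to 100870778 in the first part of the gene, had a peak in every list, at 82.1, 65.2 and 65.4. Upstream, the region at 100820536 to 100821284 ranked at 84.3, 95.3 and 90.7 and carried an AP-1 match. The next, at 100830817 to 100831689, ranked at 94.8, 74.5 and 73.3. Of the 5 regions of the set in NTG alone that ranked highest by fold enrichment, 3 belonged to NR1H4, each at the lowest local background of the list. They ranked at 68.9, 53.7 and 47.4, on 20, 16 and 15 reads at read percentiles of 49.6, 31.9 and 25.3. That at 53.7 lay at a start site of GAS2L3, the next gene downstream.

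**Figure D3:**
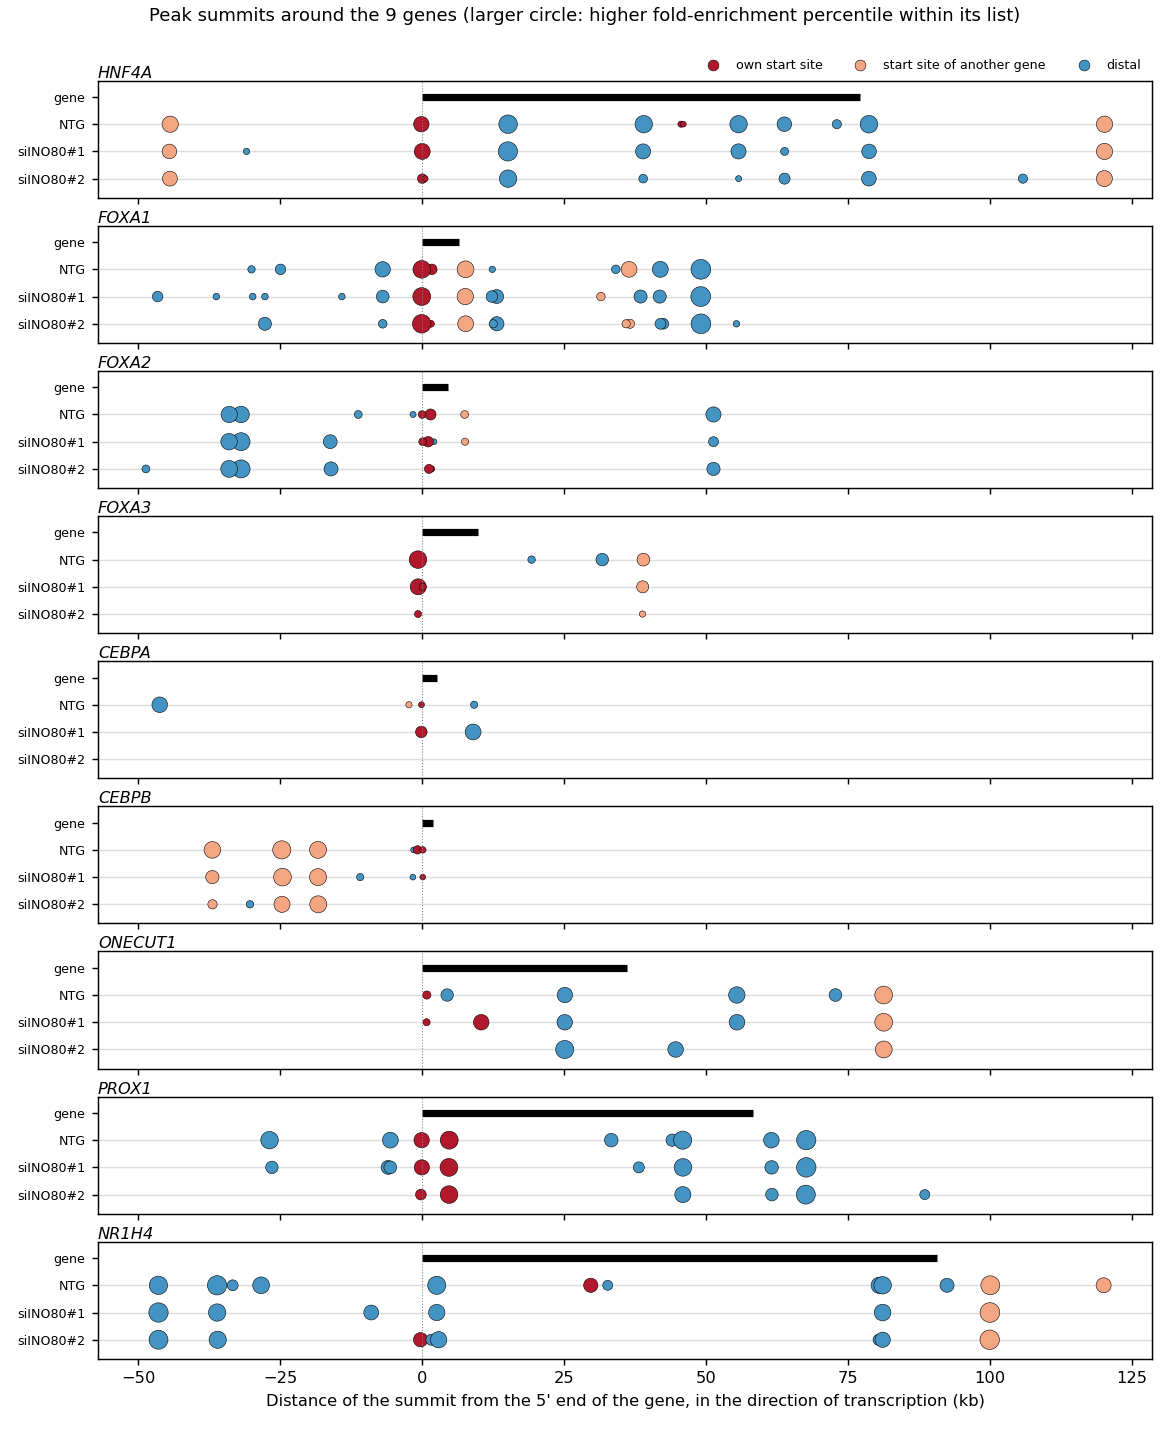
Position of each peak summit in NTG, siINO80#1 and siINO80#2 around the 9 genes, in kb from the 5′ end of the gene in the direction of transcription (x axis); the black bar is the gene, colour gives the type of position and a larger circle a higher percentile of fold enrichment within its list. Many large circles recur at the same position in every list, as in the FOXA1 region at percentiles 99.6, 99.9 and 99.3, but the PROX1 region at 76.2 is in NTG alone.

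The lists were then compared over the set. Of the 71 NTG peaks, 47 overlapped a siINO80#1 peak, or 66.2% (95% Wilson interval 54.6 to 76.1), against 56.5% of all NTG peaks. In siINO80#2, 38 were found, or 53.5% (42.0 to 64.6), against 48.0%. The intervals cover counting error only, and neighbouring peaks are not independent. For distal peaks the shares were 26 of 43 in siINO80#1 (60.5%) against 48.5% of all distal peaks, and 21 of 43 in siINO80#2 (48.8%) against 40.4%. For peaks at a start site of any gene they were 21 of 28 in siINO80#1 (75.0%) against 79.8%, and 17 of 28 in siINO80#2 (60.7%) against 70.2%. At the members' own start sites, 11 of 15 (73.3%) were matched in siINO80#1 and 7 of 15 (46.7%) in siINO80#2. The nearest background is the 79.8% and 70.2% for start sites of any gene. These 15 peaks had a median fold-enrichment percentile of 22.0, and below percentile 25 the whole NTG list had 26.2% and 18.4% matched. The part of peak strength in these shares was not tested. In the reverse direction, 47 of 62 siINO80#1 peaks had a match in NTG (75.8%, 63.8 to 84.8) against 56.6% of that list, and 39 of 53 siINO80#2 peaks did (73.6%, 60.4 to 83.6) against 63.6%. The intervals given held the value of the whole list, except that of the siINO80#1 peaks in NTG.

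Sharing was most complete among the strong peaks. Among the members' NTG peaks above percentile 75 of the list, 17 of 18 had a match in siINO80#1 and 17 of 18 in siINO80#2, where the whole list had 95.7% and 90.8%. Between percentiles 50 and 75 the counts were 17 and 16 of 21, where the whole list had 69.5% and 57.2%. Between 25 and 50 they were 2 and 2 of 9, where it had 34.8% and 25.7%. Below percentile 25, 11 of 23 had a match in siINO80#1 and 3 of 23 in siINO80#2, where the whole list had 26.2% and 18.4%.

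Of the 94 merged regions, 35 had a peak in all 3 lists, or 37.2% (28.1 to 47.3), against 26.8% of all regions. They came from 8 of the 9 genes, with none for CEBPA. NTG alone had 23, or 24.5% (16.9 to 34.0), against 24.4%. These 23 regions included 1 or more of every gene, and 17 were distal, 4 at an own start site and 2 at a start site of another gene. The siINO80#1 list alone had 12 regions against 21.6% of all regions, and siINO80#2 alone had 10 against 11.7%. NTG shared 10 regions with siINO80#1 only, 4 of them at an own start site, against 7.64%, and 1 with siINO80#2 only, at FOXA1, against 2.62%. The 3 regions shared by the siINO80 lists but absent from NTG made up 3.19% (1.09 to 8.97), against 5.19%, and all were distal. Without the genes on chromosomes 14 and 20, NTG alone had 15 of 43 regions (34.9%, 22.4 to 49.8), against 24.4% of all regions. Of the NTG peaks of the remaining genes, 42.9% had a match in siINO80#2, against 48.0% of all NTG peaks. All 3 lists then shared 14 of 43 regions (32.6%, 20.5 to 47.5), and siINO80#1 alone had 5 (11.6%, 5.07 to 24.5). Each of these intervals, and that for NTG alone, covered the share of all regions, which includes chromosomes 14 and 20.

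**Figure D4:**
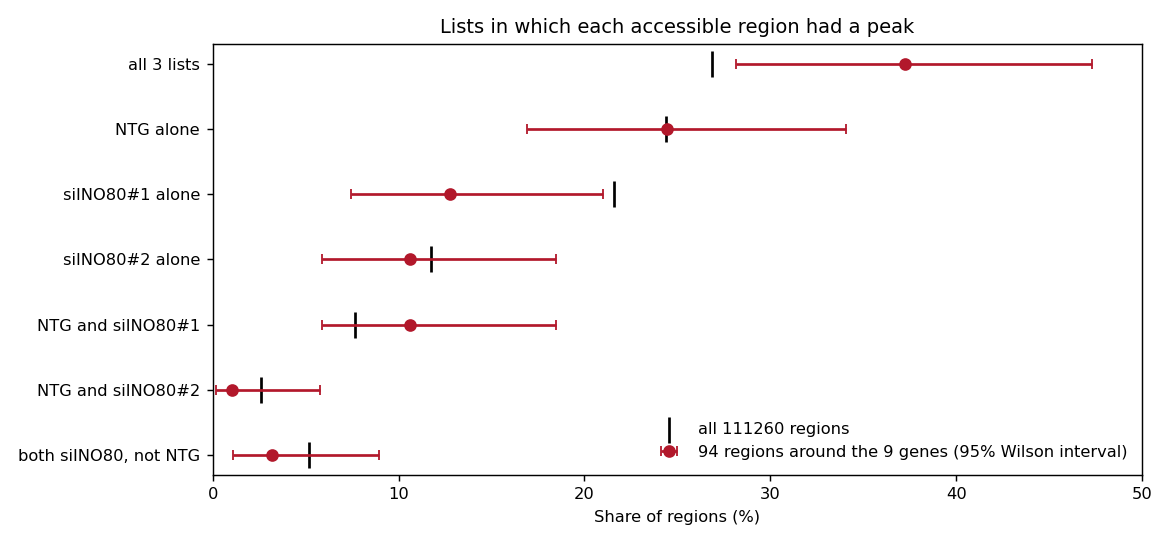
Share of regions in percent (x axis) by the lists in which they had a peak (y axis), for the 94 regions around the 9 genes (points, with 95% Wilson intervals for counting error) and for all 111260 regions (vertical bars). The interval lies above the bar for regions in all 3 lists, below it for siINO80#1 alone, and covers the bar in the other 5 classes. Without the genes on chromosomes 14 and 20 (not drawn), the intervals for all 3 lists and for siINO80#1 alone covered the bar too.

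The summit sequences were searched over 200 bp for short motifs of these factors, HNF1 and AP-1, on both strands, none of which contains another. The HNF4A motif CAAAGTCCA and the HNF1 motif GTTAATNAT were in 0 of the 94 regions, against 0.802% and 1.06% of all regions. The FOXA motif was in 4 regions (4.26%, against 4.95%), all distal and all shown above, and in 0 of the 17 regions at an own start site. The C/EBP motif was in 11 regions (11.7%, against 10.3%), also all distal. The ONECUT motif ATCAATA was in 5 (5.32%, against 1.82%), the NR1H4 motif in 2 (2.13%, against 0.764%) and the AP-1 motif in 5 (5.32%, against 11.9%). A match gives only the letters present and does not show binding. The 17 regions at own start sites had a median GC content of 61.5% and a median of 11 CpG in these 200 bp, whereas the 62 distal regions had 48% and 2. All start-site regions had 60% and 11, and all distal regions 45% and 2.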

How the data were processed

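ATAC-seq of HepG2 cells (9 samples, 3 per siRNA) was analysed from the 3 deposited peak lists, 1 per siRNA. Sample titles gave the groups. The labels name hg19, and the submitters' processing notes name Trim Galore 0.4.1, Bowtie2, SAMtools, MACS2 and deepTools 2.2.4. Their settings, any shift for the transposase and the way replicates were combined are not given in the sources used here. For each summit the authors deposited a fold enrichment, which is a ratio of reads to the local background without an input library, and p and q as −log10 values. No per-sample column was left unused (0).

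The 9 genes, the comparison lists and the motifs were chosen with earlier results of these data known. Intervals with several summits were counted once, at the summit of highest fold enrichment. Peaks overlapping a gene body (GENCODE v44 lifted to GRCh37) or 50 kb either side were kept. A start-site peak had its summit within 1 kb of a transcript start of the gene, and overlap was counted from 1 bp. Named regions were each gene's strongest start-site peak per list, its distal region of highest mean percentile, the 5 strongest regions in NTG alone and up to 5 in both siINO80 lists alone; other regions named were chosen after their values were seen. Reads at the summit were solved from fold enrichment and p, assuming the MACS2 formulas. The error left was at most 0.00121 in −log10 p, against at least 0.0275 for the next whole number. Sequencing depth per sample is unknown. Summit reads, overlaps and region classes were tested on simulated data, and 100% were recovered. The simulated summits were made with the same formulas, so recovery of their reads checks the solving and not the assumption. The marker PECAM1 was not analysed here. The software was matplotlib 3.10.9, pysam 0.24.0, statsmodels 0.14.6, scipy 1.17.1, pandas 2.3.3, numpy 2.4.6 and Python 3.11.15. Alternatives were −log10 q of at least 5, 50% overlap, equal list length, 2.5 kb, a 10 kb window, protein-coding starts, leaving out chromosomes 14 and 20, and, added after seeing the data, equal length by reads and the span in place of the summit.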

Additional observations from a re-analysis of the deposited data

Results flagged for a closer look

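The number of ONECUT1 peaks at its own start sites was 1 in NTG, 2 in siINO80#1 and 0 in siINO80#2, so that the siRNAs moved from NTG in opposite directions and differed from each other by 2. Of 40 counts compared in this way, for each gene and for the set by position, 1 moved so. The difference was not tested.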

How the results depend on the processing

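No paired analysis was possible because the 3 replicates of a siRNA share 1 list, and leaving out a replicate could not be done either. Raising the −log10 q to at least 5 left 40, 36 and 30 peaks in NTG, siINO80#1 and siINO80#2 (differences from NTG of -4 and -10, in place of -9 and -18), a start-site peak for 6, 7 and 3 genes, 22 regions in all 3 lists, 6 in NTG alone, and a match in siINO80#1 for 80% of the NTG peaks. With lists of equal length by fold enrichment, siINO80#2 minus NTG turned to 3, the NTG share matched in siINO80#2 was 72% and NTG alone had 12 regions. With equal length by reads at the summit, chosen after seeing the data, these values were -15, 55.9% and 20. The 10 kb window gave 44, 36 and 29 peaks, with 21 regions in all 3 lists, 13 in NTG alone and 1 in both siINO80 lists alone. Of its siINO80#1 peaks 86.1% had a match in NTG, against 56.6% of that whole list. Without the members on chromosomes 14 and 20 there were 35, 25 and 19 peaks, 5, 4 and 3 start sites, and 14 regions in all 3 lists, 15 in NTG alone and 0 in both siINO80 lists alone, of 43, where all counts are fewer by construction. For the moves that construction does not explain the cause was not tested. At a −log10 q of at least 5 and with lists of equal length, shares over the whole lists were not computed. The matched shares and region counts at those settings therefore have no background to be set against. Of the other main values 57 stayed within 1.5 times their count or within their interval, and of the counts per gene 70 did and 38 fell by more. Read depth per sample is unknown, and its part in the calls was not tested.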
